A study of Mus musculus with 4 samples.

Results

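The 42 genes described here encode the machinery that copies DNA in S phase, and they were followed in wild-type mouse growth plate-like chondrocytes (GPLC) on days 1, 3, 5 and 10 of culture. They were taken from the expression table by gene symbol, and all 42 were found among its 24499 genes. GPLC is a cell line with traits of the chondrocytes in the cartilage of growing bone. All cells were wild type and were kept in DMEM with fetal bovine serum, antibiotics, ascorbic acid and a supplement of insulin, transferrin and selenium, so the groups differ by the day of culture alone as far as the labels say. The labels name 1 sample per day and mention that RNA came from sorted cells, with no gate named. The table holds 15 libraries of total RNA depleted of ribosomal RNA. These are 3 for day 1, numbered 1, 3 and 4, and 4 each for days 3, 5 and 10, numbered 1 to 4. The sources used here do not say what the numbers stand for. Each p-value therefore speaks of the scatter of libraries, and that scatter may be technical only.

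Copying a genome begins before S phase, when the origin recognition complex, CDC6 and CDT1 load the ring of MCM2 to MCM7 onto DNA. In S phase CDC45 and GINS turn that ring into the active helicase, DNA polymerase alpha with its primase starts each new strand, and polymerases delta and epsilon extend it on the sliding clamp PCNA. Many of these genes are transcribed as cells enter S phase, under E2F transcription factors, and they fall silent in cells that stop dividing. In the growth plate the round and columnar chondrocytes divide, and they leave the cell cycle as they enlarge toward hypertrophy.

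Each library had between 12492537 and 18841621 reads in genes. Levels are given as CPM, read counts scaled to library size, in which 1 read is worth 0.0523 to 0.0787, and 12109 genes with a mean of at least 1 CPM were tested, among them all 42. The chondrocyte label was checked against 8 cartilage markers, all of which passed that level. Col2a1, the main collagen of cartilage, averaged 3296, 11815, 2908 and 5347 CPM on days 1, 3, 5 and 10. Its libraries were far apart on day 3, at 8380 to 20254 CPM, and on day 10, at 1262 to 12719 CPM. Sox9, a master regulator of chondrocytes, averaged 378, 313, 163 and 173 CPM on the 4 days. Matn1, a matrilin of cartilage matrix, averaged 0.897 CPM on day 1, so 1 defining marker was near absent there. The macrophage genes Adgre1, Aif1 and Tyrobp and the endothelial genes Cldn5 and Tie1 were at 0 in all 15 libraries. Other macrophage markers were not absent, and Cd68, Cd14 and Lyz2 were at 0 in no library. Cd68 averaged 4.32, 4.29, 4.67 and 3.80 CPM on days 1, 3, 5 and 10. Cd14 averaged 3.00, 2.13, 2.98 and 2.58 CPM on these days. The 8 macrophage markers together came to 5.87 to 9.88 CPM per library, and the 8 endothelial ones to at most 0.904 CPM.

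Promoters of 5 of the genes are shown here because 14 of the 35 genes with a RefSeq promoter window (40%) held an exact E2F-type motif, against 2.6% of the 27025 genes with such a window. The window runs from 250 bases before to 50 bases after the RefSeq gene start on GRCm38.p6. The motifs searched, on both strands, were TTTCCCGC, TTTCGCGC, TTTGCCGC and TTTGGCGC, and they are in capitals below, in whichever strand they were found. Overlapping matches appear as 1 run of capitals. Cdc6 lies on the plus strand at chr11:98907901-98908200, Mcm5 on the plus strand at chr8:75109259-75109558 and Mcm6 on the minus strand at chr1:128359656-128359955. Mcm7 lies on the minus strand at chr5:138171834-138172133 and Rrm2, with no match, on the plus strand at chr12:24708004-24708303.
Cdc6: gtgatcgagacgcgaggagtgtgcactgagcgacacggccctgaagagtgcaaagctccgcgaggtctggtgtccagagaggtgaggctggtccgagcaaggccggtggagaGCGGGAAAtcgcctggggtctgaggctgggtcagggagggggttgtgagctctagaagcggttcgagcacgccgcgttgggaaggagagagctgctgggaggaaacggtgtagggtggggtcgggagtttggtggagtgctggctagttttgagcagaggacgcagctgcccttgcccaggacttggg
Mcm5: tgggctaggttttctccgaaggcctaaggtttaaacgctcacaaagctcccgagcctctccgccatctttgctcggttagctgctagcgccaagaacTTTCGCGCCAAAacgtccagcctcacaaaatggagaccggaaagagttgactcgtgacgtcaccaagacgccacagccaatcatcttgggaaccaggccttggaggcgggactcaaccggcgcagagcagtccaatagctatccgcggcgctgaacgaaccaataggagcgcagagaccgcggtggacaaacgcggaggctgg
Mcm6: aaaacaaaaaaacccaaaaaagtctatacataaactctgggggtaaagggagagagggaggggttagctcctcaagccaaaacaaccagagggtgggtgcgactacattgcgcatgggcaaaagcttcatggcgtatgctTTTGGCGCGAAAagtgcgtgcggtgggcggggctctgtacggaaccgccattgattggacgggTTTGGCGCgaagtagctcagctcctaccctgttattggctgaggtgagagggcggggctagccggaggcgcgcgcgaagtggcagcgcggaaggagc
Mcm7: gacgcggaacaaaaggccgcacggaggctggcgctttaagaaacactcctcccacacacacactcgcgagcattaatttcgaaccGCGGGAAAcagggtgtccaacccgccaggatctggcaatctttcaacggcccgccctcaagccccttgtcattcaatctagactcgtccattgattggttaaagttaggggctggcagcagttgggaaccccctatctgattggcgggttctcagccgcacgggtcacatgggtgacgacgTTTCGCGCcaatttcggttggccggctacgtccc
Rrm2: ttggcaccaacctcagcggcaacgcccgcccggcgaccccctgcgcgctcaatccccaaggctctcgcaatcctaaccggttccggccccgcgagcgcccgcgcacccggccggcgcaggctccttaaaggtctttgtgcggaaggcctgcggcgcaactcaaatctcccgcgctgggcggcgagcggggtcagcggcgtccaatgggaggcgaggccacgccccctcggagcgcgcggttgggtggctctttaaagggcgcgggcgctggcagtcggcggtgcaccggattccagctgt

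Cdc6 held 1 match, 138 bases before its RefSeq start. The GENCODE spans given further below start earlier for Cdc6 and Mcm7, and the windows shown for these genes lie inside those spans. Mcm5 held 2 overlapping matches and Mcm6 held 3, of which 2 overlap. Mcm7 held 2 in this window and none in its second RefSeq window. The other holders were Cdt1, Gins3, Lig1, Mcm3, Orc1, Pola1, Pold1, Pole2, Rfc3 and Uhrf1. The CCAAT box (CCAAT) was in 22 of the 35 (62.9%), against 41.1% of all genes, and the CHR element (TTTGAA or TTCGAA) in 6 (17.1%), against 21.7%. A match is only a run of letters in a window. The gene with the lowest log2 difference for day 10 against day 1, Rrm2, had no exact E2F match in its window, and Mcm6, with the smallest fall, had 3. The 14 genes with a match had a median log2 difference of -1.09 for day 10 against day 1 and the 21 without had -1.14. Whether a match goes with the size of the fall was not tested.

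Over the whole course the replication genes made up 0.476% to 0.478% of reads in the 3 day 1 libraries. Their share was 0.232% to 0.353% in day 3 libraries, 0.188% to 0.219% in day 5 libraries and 0.200% to 0.240% in day 10 libraries. The 3 day 1 libraries thus lay close together and above all 12 later ones, while day 3 was the most spread. Mean levels went down at each step to day 5 in all 42 genes, and the day 10 mean was above that of day 5 in 25 and below it in 17. In bulk RNA, fewer cells in S phase and less RNA of these genes per cell cannot be told apart. Mki67, which marks dividing cells of any phase, was at 919, 607 and 570 CPM in the day 1 libraries. It spanned 229 to 460 CPM among those of day 3, 102 to 351 CPM among those of day 5 and 166 to 415 CPM among those of day 10.

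**Figure D1:**
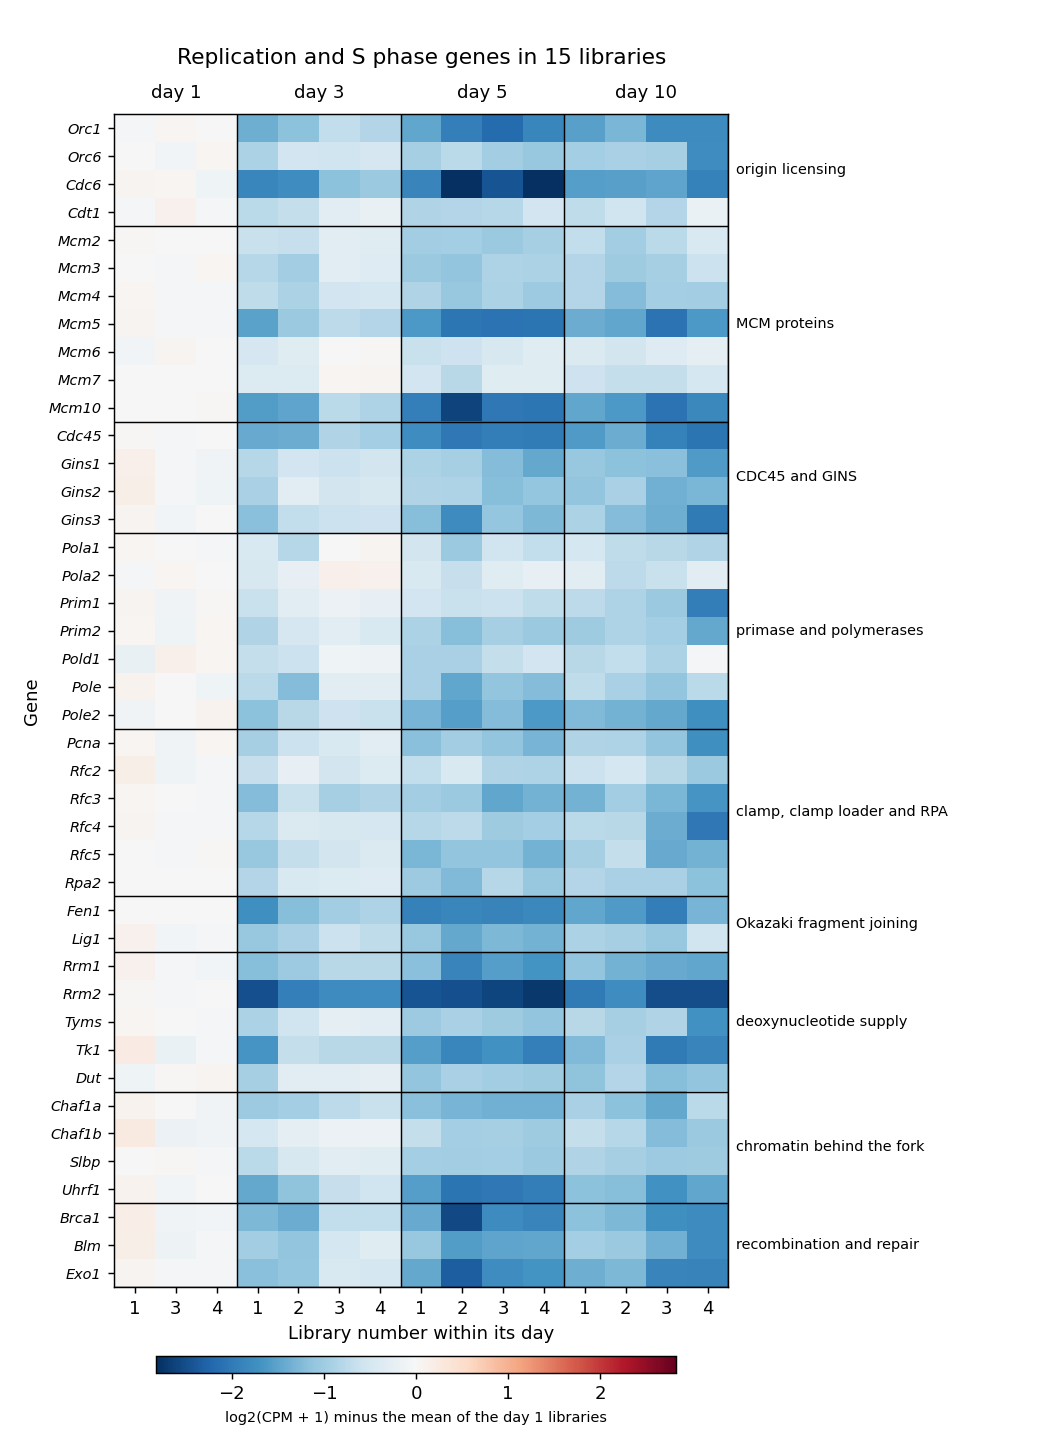
Level of the 42 replication and S phase genes (rows, grouped by role) in the 15 libraries (columns), as log2(CPM + 1) minus the mean of the day 1 libraries of the same gene; blue is below day 1. The columns of days 5 and 10 are blue in nearly all rows, and on day 3 libraries 1 and 2 are darker than libraries 3 and 4 in most rows.

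Day 3 against day 1 asks which genes had changed early in culture. By limma, with Benjamini-Hochberg adjustment over all 12109 genes and a threshold of 0.05, 33 of the 42 genes fell and 0 rose, where 16.1% of all genes tested fell and 15.7% rose. All 42 differences were negative, with a median log2 difference of -0.64 against -0.02 over all genes tested. The 9 that did not pass were Mcm6, Mcm7, Pola1, Pola2, Prim1, Pold1, Rfc4, Tyms and Chaf1b. In 37 of the 42 every day 3 library lay below every day 1 library, and Mcm6, Mcm7, Pola1, Pola2 and Pold1 were the exceptions. Of all genes tested, 26.4% lay below in this way. The count rested on few libraries, since without the libraries numbered 1 it was 14 and without those numbered 3 it was 17.

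By day 5 all 42 genes were lower than on day 1 (24.8% of all genes tested fell), with a median log2 difference of -1.14 against 0.01 over all genes tested. For day 10 against day 1 all 42 had fallen too (25.1% of all genes tested fell), with a median of -1.14 against -0.01. Both comparisons, and that of day 3, share the 3 day 1 libraries. At least a 2-fold fall was seen in 8 genes for day 3, 27 for day 5 and 27 for day 10, as in 355, 774 and 740 of the 12109 genes tested. Every day 5 library lay below every day 1 library in all 42, and every day 10 library did so in 41, with Pold1 the exception. Over all genes tested these shares were 30.1% on day 5 and 27.3% on day 10. The log2 fall present on day 3 was a median of 54.8% of that on day 5, with 25.9% in Pola2 at the low end and 77.5% in Rrm2 at the high end. This pools libraries that differed. Within numbers 1, 3 and 4 the median over genes was -0.98, -0.45 and -0.44 for day 3 minus day 1. For day 5 minus day 1 it was -1.05, -1.04 and -1.20.

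**Figure D2:**
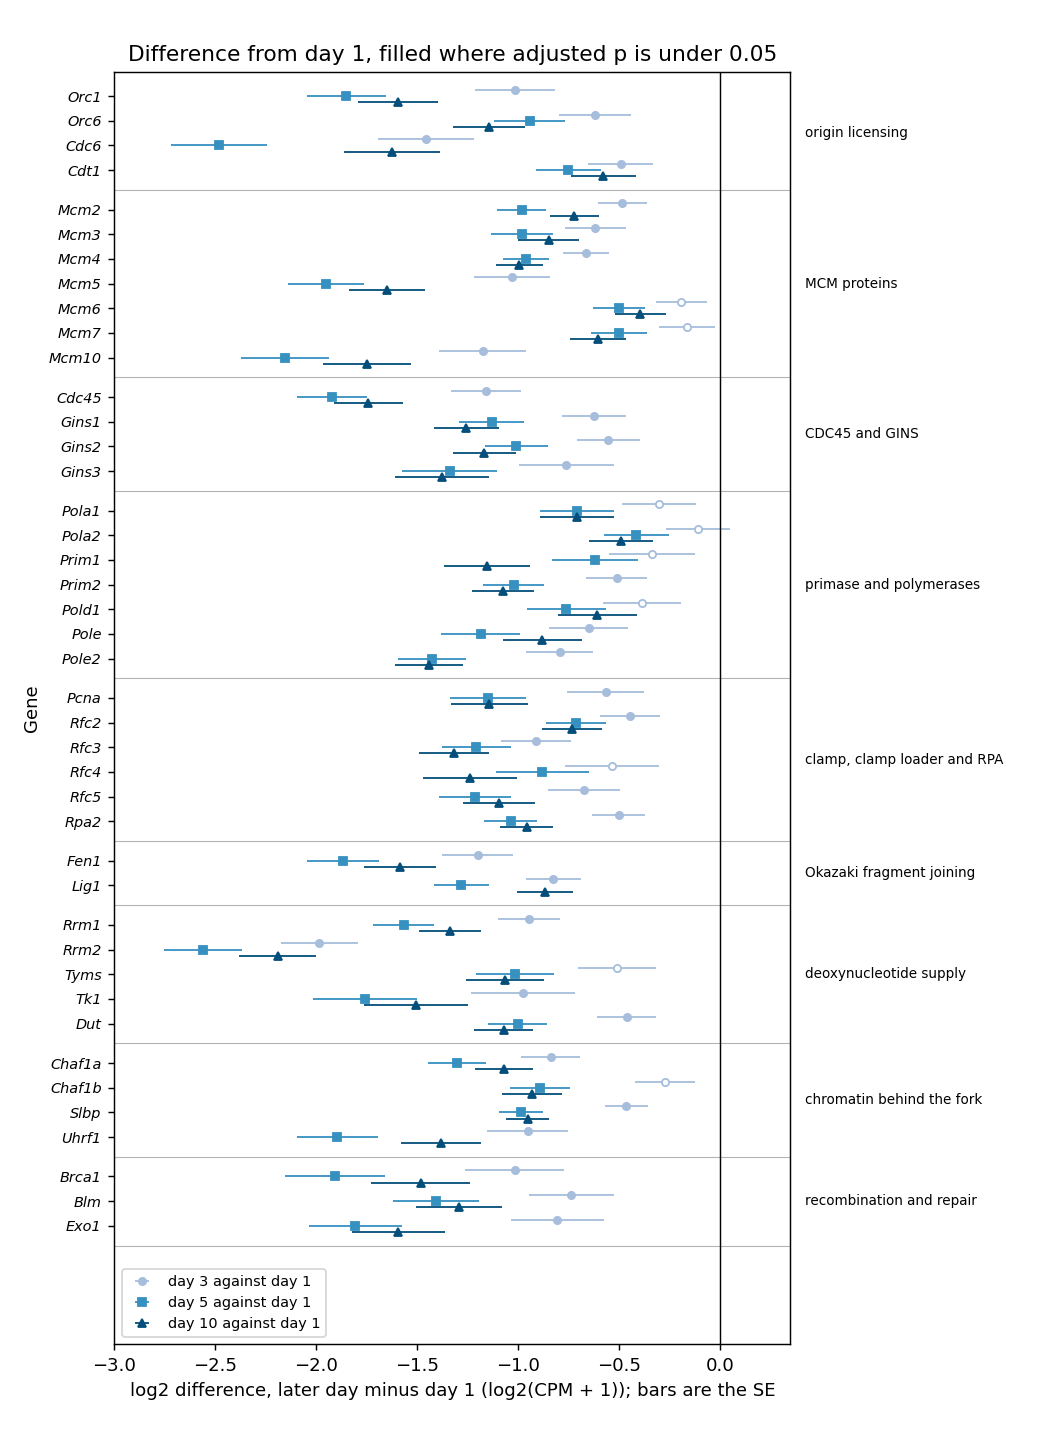
Log2 difference of each gene from day 1 on days 3, 5 and 10 (points), with its SE from limma (bars); filled points have an adjusted p under 0.05 and open points do not. All points lie left of 0, the 9 open points belong to day 3, and Rrm2, Cdc6 and Mcm10 lie farthest left on day 5.

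All 4 genes that license origins fell on every later day against day 1, with the lowest values in Cdc6 and Orc1. Cdc6, the factor that helps load the MCM ring, lies on chromosome 11 at 98907801 to 98923940 (GENCODE M21 on GRCm38, as for the other genes placed below). It had 41.7, 41.0 and 36.1 CPM on day 1, 10.22, 11.02, 17.0 and 18.7 CPM on day 3, 10.08, 4.72, 6.52 and 4.79 CPM on day 5, and 12.7, 13.0, 13.4 and 9.72 CPM on day 10. All later libraries lay below day 1, and library 1 of day 5 overlapped the range of day 10. The log2 difference from day 1 was -1.45 ± 0.24 on day 3, -2.48 ± 0.24 on day 5 and -1.63 ± 0.24 on day 10 (SE, adjusted p = 0.00045, 1.5e-06 and 6.3e-05). Orc1, the largest subunit of the origin recognition complex, had 19.5, 20.6 and 19.7 CPM on day 1. Its later libraries spanned 7.02 to 11.97 CPM (day 3), 3.66 to 6.53 CPM (day 5) and 5.07 to 7.58 CPM (day 10). Its log2 difference for day 10 against day 1 was -1.59 ± 0.20 (adjusted p = 1.5e-05).

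Orc6, another subunit of that complex, fell less, with a log2 difference of -1.14 ± 0.18 for day 10 against day 1 (adjusted p = 0.00011). Cdt1, the partner of CDC6 in loading, was at 49.5, 55.6, 45.6 and 71.7 CPM on day 10, against 78.5, 89.4 and 79.0 CPM on day 1, with library 4 of day 10 the nearest to day 1. It fell by 0.58 ± 0.16 (adjusted p = 0.0082). Of the subunits outside the 42, Orc2 was lower on day 10 than on day 1 by a log2 difference of -1.37 ± 0.18 (adjusted p = 3.2e-05) and Orc4 by -1.04 ± 0.29 (adjusted p = 0.0079), which was -0.67 without library 4 of day 10. Orc3 and Orc5 did not pass, at -0.39 ± 0.16 and -0.29 ± 0.13 (adjusted p = 0.053 and 0.09).

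The 6 subunits of the MCM2 to MCM7 ring, which work in equal numbers, had unequal log2 differences from day 1. Mcm5 (chromosome 8, 75109569 to 75128439) had 288, 266 and 267 CPM on day 1, 95.3, 131, 164 and 155 on day 3, 87.9, 65.6, 64.1 and 64.5 on day 5, and 102, 98.3, 63.9 and 87.6 on day 10. Its day 1 libraries were above all others by a wide gap, and the log2 difference was -1.95 ± 0.19 for day 5 and -1.65 ± 0.19 for day 10 (adjusted p = 1.6e-06 and 7.6e-06). Mcm6 (chromosome 1, 128331590 to 128359664) had 243, 268 and 255 CPM on day 1, 185, 201, 259 and 259.9 on day 3, 165, 169, 188 and 202 on day 5, and 191, 177, 198 and 212 on day 10. Libraries 3 and 4 of day 3 lay within the range of day 1, and only days 5 and 10 stood wholly below it. The difference was -0.19 ± 0.13 for day 3, which did not pass (adjusted p = 0.28), and -0.39 ± 0.13 for day 10, which did (adjusted p = 0.019).

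Mcm7 (chromosome 5, 138164583 to 138172422) had 279, 277 and 273 CPM on day 1, 211, 211, 289 and 289.5 on day 3, 189.6, 160.2, 218 and 218 on day 5, and 185, 173, 173 and 196 on day 10. On day 3 its libraries 3 and 4 were above day 1, and on days 5 and 10 all libraries were below. The difference was -0.16 ± 0.14 for day 3 (adjusted p = 0.4) and -0.60 ± 0.14 for day 10 (adjusted p = 0.0022). Mcm2, Mcm3 and Mcm4 lay between, at -0.72, -0.85 and -0.99 for day 10 against day 1, each passing the test. Mcm4 had 179.8, 136, 164 and 161 CPM on day 10, against 331, 314 and 311 CPM on day 1.

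To set the 6 side by side, each was expressed as log2(CPM) relative to the mean of the 6 in the same library, a value that also holds gene length, so that only its change between days is read. Mcm5 stood at -0.87 ± 0.22 on day 5 and -0.67 ± 0.29 on day 10, against 0.11 ± 0.05 on day 1 (SD, n = 4, 4 and 3). Mcm6 stood at 0.50 ± 0.12 and 0.49 ± 0.09 on these days, against 0.01 ± 0.08 on day 1. For Mcm5, Mcm6 and Mcm7 the libraries of days 3, 5 and 10 did not overlap those of day 1 in this relative value, with an exact two-sided permutation p of 0.0286, the smallest that 4 against 3 libraries allow. Adjusted over the 18 tests made, that is 0.0571, so none passes 0.05. With the unadjusted p already the smallest possible, no wider gap in these genes could have lowered it, so the adjusted value decides nothing about them. A fall of 1 subunit raises the relative value of the others by construction. Mcm10, which is no part of the ring and binds the helicase as it is activated, had 19.0, 17.0, 11.98 and 14.7 CPM on day 10, against 53.4, 53.8 and 55.4 CPM on day 1. Its log2 difference was -1.17 for day 3, -2.16 for day 5 and -1.75 ± 0.22 for day 10 (adjusted p = 1.6e-05 for day 10).

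**Figure D3:**
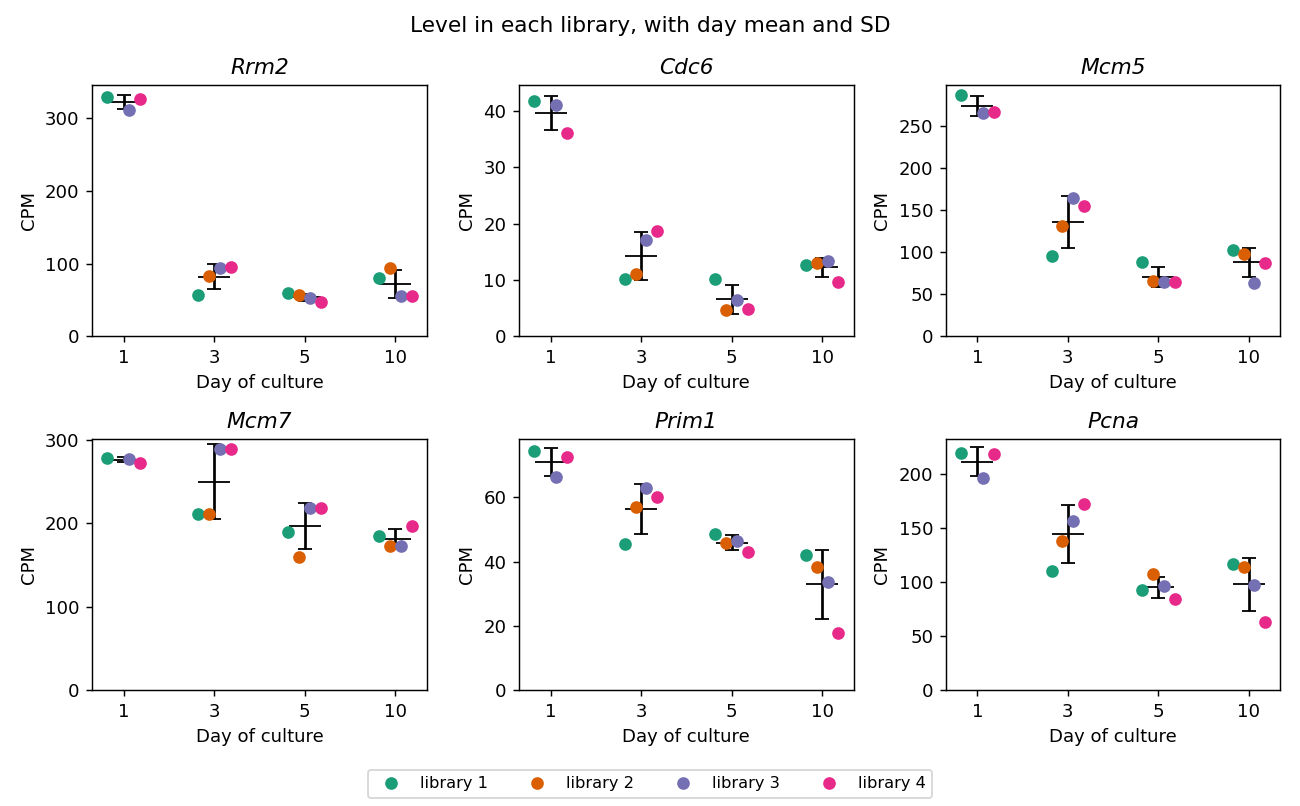
CPM of Rrm2, Cdc6, Mcm5, Mcm7, Prim1 and Pcna in each library by day of culture (points, coloured by library number), with the day mean and SD (bars; n = 3 on day 1 and 4 on the other days). Rrm2, Cdc6 and Mcm5 are far below day 1 on every later day, Mcm7 overlaps day 1 on day 3, and Prim1 and Pcna are lowest in library 4 of day 10.

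All 4 genes of CDC45 and GINS, the partners that complete the helicase, passed on every later day against day 1. Cdc45 had 58.7, 55.2 and 58.0 CPM on day 1. Its later libraries lay at 20.8 to 31.2 CPM (day 3), 13.4 to 16.4 CPM (day 5) and 13.0 to 21.1 CPM (day 10). Its difference was -1.92 ± 0.17 for day 5 and -1.74 ± 0.17 for day 10 (adjusted p = 8.6e-07 and 2.2e-06). Gins1, Gins2 and Gins3, subunits of the GINS ring, fell too, with log2 differences of -1.26, -1.17 and -1.38 for day 10 against day 1. Gins4, the subunit outside the 42, fell by 0.46 ± 0.11 (adjusted p = 0.0036). Of the exon bases of Gins2, 67.3% overlap exons of Gse1 on the opposite strand, and no source used here gives the strand setting of the counting. Whether reads of the pair were kept apart is therefore not known.

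The primase and polymerase genes had median differences of -0.38, -0.76 and -0.88 for days 3, 5 and 10 against day 1, the smallest of the roles on days 3 and 5. On day 10 the MCM genes had the smallest, at -0.85. Of the 7 primase and polymerase genes, 3 passed on day 3. Pola2, the accessory subunit of polymerase alpha, had 38.4, 44.9, 59.1 and 58.2 CPM on day 3, against 51.8, 55.4 and 52.6 CPM on day 1, so libraries 3 and 4 of day 3 were the highest of all 7. It fell by 0.41 ± 0.16 for day 5 and by 0.49 ± 0.16 for day 10 (adjusted p = 0.042 and 0.019). The day 5 call was lost in 13 of the 29 alternatives. Pola1, the catalytic subunit, fell by 0.71 ± 0.18 for day 10 (adjusted p = 0.0051).

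Prim1, the catalytic subunit of primase (chromosome 10, 128015168 to 128030037), was the only gene of the 42 with every day 10 library below every day 5 library, as in 5.3% of all genes tested. It had 74.6, 66.3 and 72.6 CPM on day 1, 45.5, 57.0, 63.1 and 60.3 on day 3, 48.5, 45.8, 46.4 and 43.0 on day 5, and 41.9, 38.3, 33.7 and 17.7 on day 10. The gap between days 5 and 10 was small, and library 4 of day 10 stood far below the other 3. For day 10 against day 1 the difference was -1.16 ± 0.21 (adjusted p = 0.00043), and it was -0.89 without library 4 of day 10. For day 10 against day 5 it was -0.54 ± 0.20, which did not pass (adjusted p = 0.12). Prim2, the large subunit of primase, was at 24.5, 26.9, 25.2 and 17.8 CPM on day 10, against 52.4, 46.1 and 52.5 CPM on day 1, and its difference was -1.07 ± 0.15 (adjusted p = 4.9e-05).

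Pole2, the second subunit of the leading-strand polymerase epsilon, fell by 1.44 ± 0.17 for day 10 against day 1 (adjusted p = 8.9e-06), and Pole, its catalytic subunit, fell by 0.88 ± 0.20 (adjusted p = 0.0018). Pold1, the catalytic subunit of polymerase delta, had 64.1, 68.4, 59.2 and 106 CPM on day 10, against 95.8, 123 and 115 CPM on day 1. Library 4 of day 10 alone lay within the day 1 range, and the gene still fell, by 0.61 ± 0.19 (adjusted p = 0.018). Outside the 42, Pold2, Pold3, Pole3 and Pole4 fell, with log2 differences of -0.79, -0.83, -0.97 and -0.65. Pold4, the smallest subunit of polymerase delta, rose by 0.65 ± 0.22 (adjusted p = 0.025), to 3.12 ± 0.354 CPM on day 10 (SD, n = 4), against 1.65 ± 0.430 CPM on day 1 (SD, n = 3). That call was lost without library 1 of day 1 (adjusted p = 0.12) or library 4 of day 10 (adjusted p = 0.053), and 24.6% of its exon bases overlap another gene of the same strand.

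**Figure D4:**
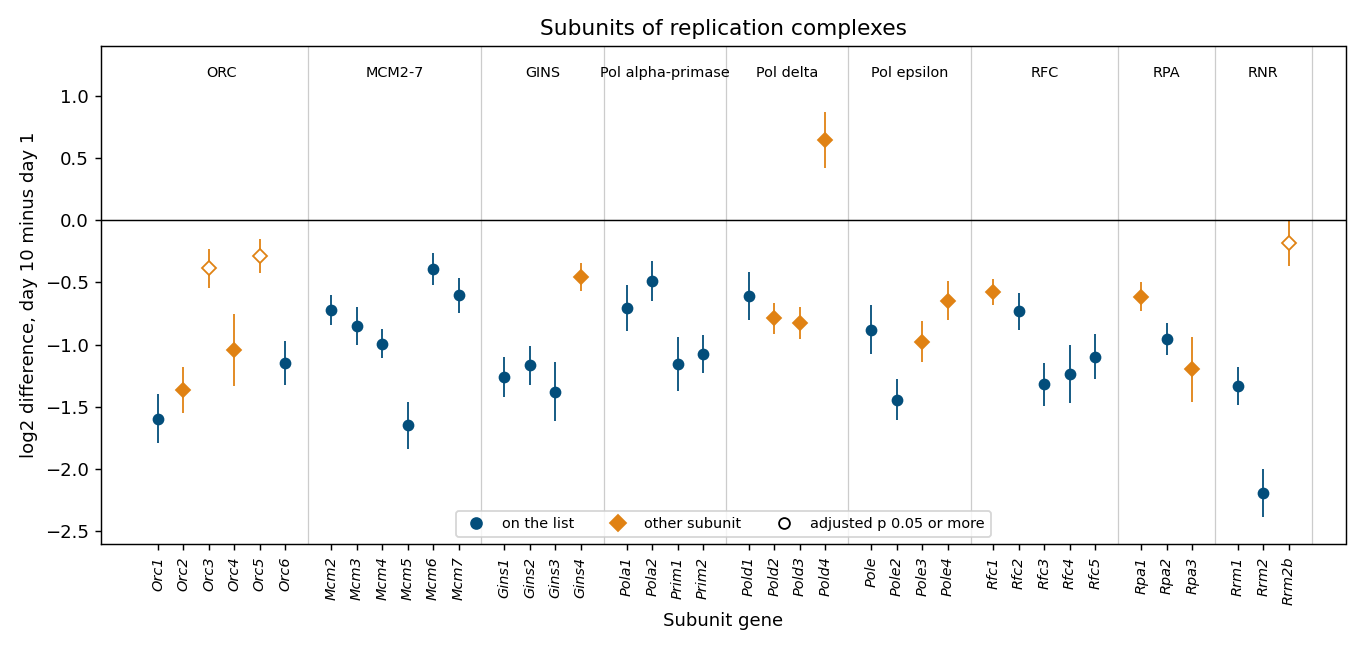
Log2 difference for day 10 against day 1, with the SE from limma, of every subunit of 9 replication complexes (circles on the list of 42, diamonds outside it, open where the adjusted p is 0.05 or more). Pold4 alone lies above 0, and within the MCM2 to MCM7 ring the values run from -1.65 in Mcm5 to -0.39 in Mcm6.

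Pcna, the sliding clamp and a common proliferation marker (chromosome 2, 132249162 to 132253314), had 220.2, 196 and 219 CPM on day 1, 110.1, 138, 157 and 173 on day 3, 92.5, 107, 96.8 and 84.1 on day 5, and 117, 114, 97.8 and 63.0 on day 10. All later libraries lay below day 1, day 3 being the closest to it. The difference was -0.57 ± 0.19 for day 3, -1.15 ± 0.19 for day 5 and -1.14 ± 0.19 for day 10 (adjusted p = 0.034, 0.00017 and 0.00018). The loader that opens the clamp is built of Rfc1 and the 4 small subunits on the list. All fell for day 10 against day 1. The log2 differences of Rfc3, Rfc4, Rfc5 and Rfc2 were -1.32, -1.24, -1.095 and -0.73, and that of Rfc1, outside the 42, was -0.58 ± 0.10 (adjusted p = 0.00028).

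Rpa2, a subunit of the complex that coats single-stranded DNA, was at 26.8 to 33.7 CPM on day 10, against 60.4 to 61.6 CPM on day 1, and fell by 0.96 ± 0.13 (adjusted p = 3.5e-05). Its partners outside the list, Rpa1 and Rpa3, also fell, with -0.62 and -1.198. Fen1, the nuclease that trims the flaps of Okazaki fragments, had 32.6, 29.7, 23.2 and 36.2 CPM on day 10, against 93.0, 91.2 and 92.1 CPM on day 1. It fell by 1.58 ± 0.18 (adjusted p = 6e-06). An antisense gene, Gm10143, covers 78.8% of its exon bases. With the strand setting not given, how reads over the shared bases were counted is not known, and the count of Fen1 may be too high or too low. Lig1, the ligase that seals the fragments, fell by 0.87 ± 0.14 (adjusted p = 0.00012).

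Rrm2, the regulated small subunit of ribonucleotide reductase (chromosome 12, 24708241 to 24714146), had the lowest difference of the 42 on every later day against day 1. It had 329, 311 and 326 CPM on day 1, 57.1, 83.3, 93.6 and 95.01 on day 3, 59.0, 56.4, 52.3 and 47.9 on day 5, and 80.4, 94.4, 56.0 and 55.6 on day 10. Day 1 stood far above the rest, and days 3, 5 and 10 overlapped one another. The difference was -1.98 ± 0.19, -2.56 ± 0.19 and -2.19 ± 0.19 (adjusted p = 5.9e-06, 2.2e-07 and 7.3e-07). Per kilobase of exon Rrm2 was the most abundant of the 42 on day 1, at 116 CPM per kb. It was the seventh on day 10, at 25.8 CPM per kb, when Mcm4 stood first at 44.7 CPM per kb. These ranks depend on the annotation, since the length counts every annotated exon base, 2771 for Rrm2 and 11012 for Rrm1. Rrm1 averaged 316 CPM on day 1, against 322 CPM for Rrm2, and ranked 13 per kb.

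Rrm1, the large subunit of the same enzyme, had 145, 125, 117 and 114 CPM on day 10, against 346, 305 and 298 CPM on day 1, and fell by 1.34 ± 0.15 (adjusted p = 7.8e-06). Rrm2b, the p53-inducible small subunit, is outside the list and did not pass (-0.18 ± 0.19, adjusted p = 0.43), at day means of 12.2, 12.7, 12.4 and 10.7 CPM. Tk1, thymidine kinase, Tyms, thymidylate synthase, and Dut, the dUTPase, fell for day 10 against day 1, with log2 differences of -1.51 ± 0.26, -1.06 ± 0.19 and -1.07 ± 0.15. A pseudogene copy of Tyms has its own row in the table, so reads of the pair may have been divided between them.

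Of the genes that restore chromatin behind the fork, Uhrf1, which brings the maintenance DNA methyltransferase to new DNA, had 73.6, 71.3, 49.2 and 59.0 CPM on day 10, against 176, 155 and 163 CPM on day 1. It fell by 1.38 ± 0.20 (adjusted p = 5.6e-05). Chaf1a and Chaf1b, subunits of the histone chaperone CAF-1, fell as well, with -1.07 and -0.93. Over 52.5% of the exon bases of Chaf1a an opposite-strand gene, Ubxn6, is annotated. Slbp, which binds the stem-loop of histone messages, had among the tightest libraries, at 33.7 to 36.0 CPM on day 5 and 34.2 to 38.9 CPM on day 10, against 69.5 to 72.8 CPM on day 1. Its difference was -0.99 ± 0.11 for day 5 (adjusted p = 5.3e-06) and -0.95 ± 0.11 for day 10 (adjusted p = 7.1e-06).

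The 3 genes of recombination and repair, which act at broken or stalled forks, had a median difference of -1.48 for day 10 against day 1. Brca1 had 33.6, 31.2, 22.1 and 21.7 CPM on day 10, against 86.4, 71.2 and 72.1 CPM on day 1, and fell by 1.48 ± 0.25 (adjusted p = 0.00018). Exo1, a 5' to 3' exonuclease, fell by 1.59 ± 0.23 (adjusted p = 5.8e-05), and Blm, a helicase, fell by 1.29 ± 0.21 (adjusted p = 0.00017).

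Day 5 against day 3 and day 10 against day 5 show where the course levelled. For day 5 against day 3, 21 of the 42 genes fell and 0 rose, where 4.03% of all genes tested fell and 5.1% rose, and the median difference was -0.53 against 0.02 over all genes tested. Cdc6 (-1.03 ± 0.22, adjusted p = 0.012), Exo1 (-1.002 ± 0.21, adjusted p = 0.011) and Mcm10 (-0.98 ± 0.20, adjusted p = 0.0091) had the lowest values. All 42 differences were negative, but the count of calls leaned on single libraries, at 5 without library 3 or library 4 of day 3, 13 without library 3 and 11 without library 4 of day 5. It was 0 without all libraries numbered 3 (24 at an unadjusted p under 0.05), and also 0 without all those numbered 4 (27 at an unadjusted p under 0.05). Libraries 3 and 4 were the closest pair on days 1, 3 and 5, where the chi-square between their counts, divided by its degrees of freedom, was 4.75 on day 3 and 13.6 on day 5, against 37.5 to 73.2 and 44.7 to 103 for the other pairs of those days. Whether they are independent is not given in the labels, and with them averaged the count was 0 as well (27 at an unadjusted p under 0.05).

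For day 10 against day 5, 1 gene rose, where 3.75% of all genes tested rose, and 0 fell, where 2.02% fell. The riser was Cdc6, at 12.7, 13.0, 13.4 and 9.72 CPM on day 10 and 10.08, 4.72, 6.52 and 4.79 CPM on day 5 (log2 difference 0.86 ± 0.22, adjusted p = 0.035). It lost that call under 14 of the 29 alternatives. Among them are the fits without library 3 or 4 of day 1, without library 2, 3 or 4 of day 5, and without library 1 or 2 of day 10. At an unadjusted p under 0.05 limma had 4 genes higher (Cdc6, Mcm2, Lig1 and Uhrf1) and 1 lower (Prim1). On the recovered reads edgeR's quasi-likelihood test called 1 gene higher and 0 lower, and DESeq2 called 2 higher, Cdc6 and Lig1, and 0 lower. The median difference was 0.11, against -0.02 over all genes tested.

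For day 10 against day 3, 19 genes fell and 0 rose, where 9.65% of all genes tested fell, with a median of -0.46 against -0.01. Prim1 had the lowest value, -0.82 ± 0.20 (adjusted p = 0.0092), followed by Exo1 at -0.79 ± 0.21 (adjusted p = 0.017). The count was 8 without library 3 of day 3 and 8 without library 4 of day 3. It was 0 without all libraries numbered 3 (13 at an unadjusted p under 0.05), 1 without all those numbered 4, and 0 with libraries 3 and 4 averaged (17 at an unadjusted p under 0.05). Orc6, Pcna, Rfc4 and Tyms were called in this comparison at -0.53, -0.58, -0.70 and -0.56. Without library 4 of day 10 they stood at -0.32, -0.38, -0.44 and -0.34, where Orc6 alone still passed (adjusted p = 0.046). Taken within libraries of the same number, the median for day 10 minus day 3 was 0.03, -0.28, -0.76 and -0.86 in numbers 1 to 4. In number 1, 20 of the 42 genes were lower and 22 higher, whereas 33, 42 and 39 were lower in numbers 2, 3 and 4.

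The spread on day 3 ran alike through most of the list. Libraries 1 and 2 of day 3 were both below libraries 3 and 4 in 35 of the 42 genes, as in 20.1% of all genes tested, and the exceptions were Orc6, Gins1, Gins2, Rfc2, Rfc3, Rfc4 and Tk1. The median difference from the day 1 mean was -0.93 and -0.68 in libraries 1 and 2 of day 3, against -0.52 and -0.47 in libraries 3 and 4. Mki67 had 352 and 229 CPM in libraries 1 and 2 of that day and 453 and 460 CPM in libraries 3 and 4. Library 4 of day 10 was the lowest of its day in 20 of the 42 genes and the highest in 10, against 34.9% and 35.5% of all genes tested, and without it all 42 genes remained lower on day 10 than on day 1.

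Taken within libraries of the same number, the median of the 42 genes for day 3 minus day 1 was -0.98 in number 1, -0.45 in number 3 and -0.44 in number 4. For day 5 minus day 3 it was -0.12 in number 1, -0.50 in number 2, -0.67 in number 3 and -0.75 in number 4. For day 10 minus day 5 it was 0.13, 0.24, -0.05 and -0.02 in numbers 1 to 4. Number 1 thus had most of its difference by day 3, whereas numbers 3 and 4 had the larger step after it. For day 10 minus day 1 the medians were -0.98, -1.19 and -1.41 in numbers 1, 3 and 4, with all 42 genes lower in each.

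**Figure D5:**
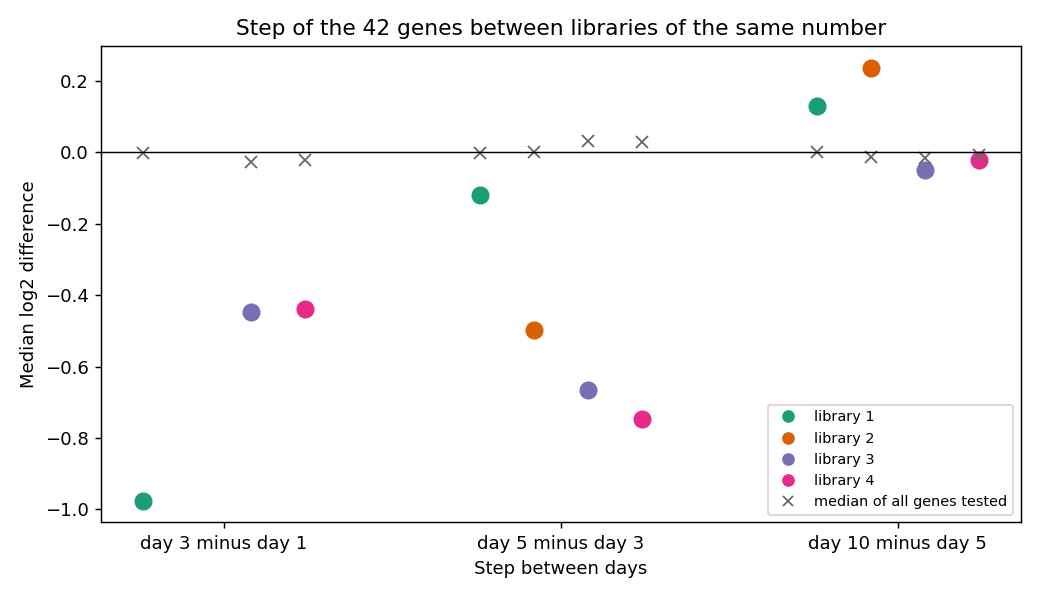
Median log2 difference of the 42 genes between consecutive sampled days, taken between libraries of the same number (coloured points; library 2 has no day 1), with the median of all genes tested in the same pair (crosses). Number 1 shows -0.98 at the first step and -0.12 at the second, and numbers 3 and 4 show -0.45 and -0.44 and then -0.67 and -0.75. At the last step numbers 1 and 2 lie above 0, at 0.13 and 0.24, and numbers 3 and 4 just below it, at -0.05 and -0.02.

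Of a further 60 genes of DNA replication outside the 42, 34 were lower and 1 higher for day 3 against day 1. For day 5 against day 1 these counts were 50 and 2, and for day 10 they were 52 and 1. Over all genes tested, 16.1%, 24.8% and 25.1% fell against day 1 on these days, and 15.7%, 25.2% and 24.3% rose. Median differences of the 60 were -0.55, -0.95 and -1.07, against -0.02, 0.01 and -0.01 over all genes tested. The lowest for day 10 against day 1 were the PCNA-binding gene 2810417H13Rik (Pclaf) at -2.17, the cyclin Ccne2 at -2.03 and Dbf4, the activator of the kinase that fires origins, at -2.02. For day 5 against day 1 they were 2810417H13Rik at -2.42, the checkpoint mediator Clspn at -2.35 and the histone chaperone Asf1b at -2.29. Among the highest for day 5 were Pold4 at 0.80 (adjusted p = 0.0078) and Orc5 at 0.15, which did not pass. On day 10 Samhd1, which breaks down deoxynucleotides, was at -0.09 against day 1 (adjusted p = 0.71).

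Samhd1 followed another course than the 42. It averaged 242, 115, 202 and 230 CPM on days 1, 3, 5 and 10, fell by 1.08 ± 0.19 for day 3 against day 1 (adjusted p = 0.00069) and rose by 0.99 for day 10 against day 3 (adjusted p = 0.0012). In a list of 30 genes of mitosis, the phase after DNA is copied, 29 were lower for day 10 against day 1. Over all genes tested, 25.1% fell in this comparison. The mitosis genes had a median difference of -1.90, against -1.14 for the 42 replication genes. Of those 30, 29 lay below the median of the replication genes, and whether the lists differ was not tested.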

How the data were processed

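GPLC libraries were made from total RNA by a kit that removes ribosomal RNA, per the labels' protocols. STAR, featureCounts, edgeR and the build GRCm38 appear in the submitters' processing notes, with no versions. Neither the annotation nor the strand setting is given in the sources used here. The authors deposited a normalized signal per gene. Its values are whole multiples of 1 read (100% within a tolerance of 0.001) and equal read counts scaled to CPM with edgeR's TMM factor, so they are called CPM here. Each of the 15 columns was taken as a library of the day in its name.

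The test was limma 3.58.1 (R 4.3.3) with eBayes and an intensity trend on log2(CPM + 1), fitted to the 15 libraries together. It covered the 12109 genes whose 4 day means averaged at least 1 CPM, with Benjamini-Hochberg adjustment over all of them and a threshold of 0.05. Differences on this scale understate the change of low genes. A day's level is the mean ± SD of its libraries. Alternatives were pseudocounts of 0.25 and 5 CPM, no filter or 5 CPM, a block by library number, edgeR 4.0.16 and DESeq2 1.42.0 on the recovered reads, CPM without the TMM factor, centring libraries on their median, libraries 3 and 4 averaged, and each library and each number left out. The members, the other lists and the tests were chosen with earlier results of these data known. All 42 members were named, and of the 60 other replication genes the 3 highest and 3 lowest for days 5 and 10 against day 1 and the missing subunits of complexes, except 1 gene that is not reported here. Rrm2b and the Samhd1 course were named after their values were seen. Exon overlaps and lengths came from GENCODE M21, promoters from RefSeq on GRCm38.p6. Among the 42 members, 8 shared more than 10% of their exon bases with another gene. The tests were tried on simulated data.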

Additional observations from a re-analysis of the deposited data

Results flagged for a closer look

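Of 126 sets of 4 libraries (42 genes on days 3, 5 and 10), 7 had a library far from the others of its day by Dixon's criterion, where chance gives about 1 in 20. Library 1 of day 3 was the lowest for Rpa2 at 34.2 CPM, Tk1 at 20.5 CPM and Dut at 97.3 CPM. Library 1 of day 5 was the highest for Mcm5 at 87.9 CPM and Chaf1b at 36.7 CPM. Library 4 of day 5 was the highest for Cdt1 at 55.9 CPM, and library 4 of day 10 was the lowest for Orc6 at 20.03 CPM.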

How the results depend on the processing

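All 42 genes stayed lower on days 5 and 10 than on day 1 in every alternative, but calls depended on the libraries used. Leaving out libraries gave 14 to 36 genes lower for day 3, 38 to 42 for day 5 and 37 to 42 for day 10 against day 1. It gave 0 to 29 for day 5 against day 3, 0 to 28 for day 10 against day 3, and 0 to 1 higher for day 10 against day 5. Calls lost for day 5 against day 1 were of Mcm6, Mcm7, Pola2, Prim1 and Rfc4, and for day 10 against day 1 of Cdt1, Mcm6, Pola1, Pola2 and Pold1. With libraries 3 and 4, the closest pair on 3 of the 4 days, averaged, 0 genes were called lower for day 5 against day 3 (27 at an unadjusted p under 0.05, all 42 negative) and 0 for day 10 against day 3 (17). The single gene higher for day 10 against day 5 became 0 with that averaging, 0 with no filter, 0 without the TMM factor and 2 with DESeq2. Of 7308 values of single genes under 29 alternatives, 6736 kept direction and call, 389 lost their call, 120 gained one, and 63 uncalled ones changed sign. With the library number as a block, 34, 42 and 42 genes were lower for days 3, 5 and 10 against day 1, 29 for day 5 against day 3, 24 for day 10 against day 3, and 1 was higher for day 10 against day 5. Deviations from the day means correlated above 0.1 in 17 of 21 same-numbered pairs (from -0.07 to 0.73), with a median of 0.26 against -0.09 for other pairs. The numbers were to count as pairing the libraries only if all 21 were above 0.1, so the fit without the block was kept. A library correlated best with its own number in 28 of 42 matches, as a hint from the data. Depth was no close limit for these genes, whose lowest library value was 3.66 CPM, or 60 reads, in Orc1.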
